A study of Arabidopsis thaliana with 26 samples.

Results

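The comparison described here is the interaction of genotype and 5-azacytidine in young Arabidopsis thaliana plants: for each gene, the change on 5-azacytidine in the msh1 memory line minus the change on 5-azacytidine in wild type. All 26 gene count libraries of the series entered it, summed within 10 biological replicates, and 22031 of 33977 gene identifiers passed the filter on low counts. Both genotypes were in the Columbia-0 background and were sampled at 10 days as whole plants with roots, grown on agar with Murashige and Skoog medium containing 0 or 100 µM 5-azacytidine. Untreated wild type had 3 replicates in 6 libraries and treated wild type 3 replicates in 9 libraries. The untreated memory line had 2 replicates in 6 libraries and the treated memory line 2 replicates in 5 libraries.

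MSH1 is a nuclear gene whose protein acts in plastids and mitochondria, where it limits recombination of organelle DNA. Memory lines descend from plants in which MSH1 had been suppressed; they carry MSH1 but keep an altered growth form that has been linked to changes in DNA methylation. 5-Azacytidine is a cytidine analogue that enters nucleic acids and traps DNA methyltransferases, so that methylation is lost as cells divide, and it also has effects outside methylation. The interaction asks for which genes the response to the drug depended on the genotype. A value above 0 can come from a gene that was higher on the drug in the memory line, lower on it in wild type, or both, so the levels in all 4 groups are given beside it.

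MSH1 itself was expressed in every replicate. Levels are given as CPM, the counts scaled to a common library size. Its level was 9.47, 8.67 and 14.1 CPM in untreated wild type and 12.4, 20.4 and 13.7 CPM in treated wild type. In the memory line it was 13.3 and 10.6 CPM untreated and 13.2 and 14.7 CPM treated. The 4 groups overlapped, and the interaction value of MSH1 was -0.31 on the log2 scale (SE 0.35, edgeR adjusted p = 0.834).

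The replicates held between 11412839 and 13544859 reads counted in genes. The second untreated memory-line replicate stood apart in its share of multiply aligned reads, which was 25.7% where the other 9 replicates had 6.49% to 13.6%. Along principal component 1, with 35.2% of the variance, untreated wild type lay at -41.1, -38.5 and -14.3, so its replicate 3 was nearest to the treated plants. Genes for root cell types other than IRT1 and PYK10 summed to between 158 and 234 CPM in the 10 replicates. With IRT1 and PYK10 included, the sums were 1406 to 1533 CPM in untreated and 1347 to 1828 CPM in treated wild type. In the memory line they were then 1864 and 2405 CPM untreated and 1560 and 2000 CPM treated. Nuclear photosynthesis genes summed to 46750 and 95140 CPM in the untreated memory line and 83630 and 39440 CPM in the treated memory line, against 62750 to 77450 CPM in wild type, so the memory-line replicates of each treatment differed more from each other than the wild-type groups did. In whole plants, fewer cells of a type and less RNA per cell cannot be told apart, and the labels do not say that replicates were grown separately, so p-values measure the spread between these samples only.

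Of 22031 genes, 4 passed the interaction test at an adjusted p under 0.05 (edgeR quasi-likelihood test, Benjamini-Hochberg over all tested genes), which is 0.0182% of genes. All 4 had a positive value and none a negative one. At an unadjusted p under 0.05, 960 genes were higher (4.36%) and 931 lower (4.23%). DESeq2, at its own adjusted p under 0.05, called 46 higher and 30 lower of the 21022 genes with an adjusted p. Over all tested genes 51.4% of values lay above 0 and the median was 0.01 on the log2 scale. For comparison, the same edgeR fit called 1408 genes (6.39%) for the drug in wild type, 3.02% higher and 3.37% lower. It called 163 genes (0.74%) for the drug in the memory line, 0.477% higher and 0.263% lower. Between untreated genotypes it called 258 genes (1.17%), 0.694% higher and 0.477% lower in the memory line, and between treated genotypes 10 genes (0.0454%).

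The 4 genes were scpl31, AT1G74770, AT1G52120 and AT3G62040, and each was lowest in both untreated memory-line replicates. For scpl31, AT1G74770 and AT1G52120 treated memory-line plants were close to treated wild type, and for scpl31 they were below untreated wild type. For AT3G62040 the treated memory-line replicates lay on either side of all wild-type samples. All 4 rose on 5-azacytidine in the memory line, and all 4 were lower in the untreated memory line than in untreated wild type. These last contrasts share samples with the interaction and describe it rather than add to it.

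The gene scpl31 (AT1G11080, chr1:3694328-3698013 of TAIR10.1, minus strand) encodes serine carboxypeptidase-like 31, of a plant family of secreted hydrolases and acyltransferases. Its level was 40.9, 50.7 and 40.9 CPM in untreated wild type and 25.1, 25.03 and 22.4 CPM in treated wild type. Memory-line plants had 8.39 and 10.6 CPM untreated and 28.9 and 24.2 CPM treated. Untreated wild type was the highest group and the untreated memory line the lowest, and neither overlapped another group. The interaction value was 2.36 on the log2 scale (SE 0.22, 95% interval 1.87 to 2.84, edgeR adjusted p = 0.00154). The gene fell by 0.87 in wild type (edgeR adjusted p = 0.00267) and rose by 1.49 in the memory line (edgeR adjusted p = 0.00116), so that the treated genotypes differed by 0.13 (edgeR adjusted p = 0.769) where the untreated ones had differed by -2.22 (edgeR adjusted p = 5.06e-05). It was the 1 gene called in both responses with opposite directions. Each of 21 alternative settings called it, with values from 2.18 to 2.58.

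AT1G74770 (chr1:28089172-28094956, minus strand) is annotated as a zinc ion binding protein. Its level was 43.6, 38.9 and 36.7 CPM in untreated wild type and 41.1, 34.6 and 34.5 CPM in treated wild type. The memory line had 13.3 and 14.2 CPM untreated and 35.2 and 33.8 CPM treated. Wild type overlapped across treatments, and the untreated memory line alone lay apart, below every other sample. Its interaction value was 1.44 on the log2 scale (SE 0.19, edgeR adjusted p = 0.0321), made up of -0.11 in wild type (edgeR adjusted p = 0.586) and a rise of 1.33 in the memory line (edgeR adjusted p = 0.000858). Between untreated genotypes the difference was -1.53 (edgeR adjusted p = 0.000357).

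AT1G52120 (chr1:19396081-19398244, minus strand) encodes a protein of the mannose-binding lectin superfamily. Its level was 10.5, 7.64 and 6.62 CPM in untreated wild type and 8.29, 7.90 and 8.95 CPM in treated wild type. It was 0.932 and 0.470 CPM in the untreated memory line and 7.99 and 5.91 CPM in the treated memory line. The untreated memory line was again the only group apart from the rest. The interaction value was the largest of the 4 at 3.22 on the log2 scale (SE 0.44, edgeR adjusted p = 0.0321). The wild-type response was 0.03 (edgeR adjusted p = 0.958), and the memory line rose by 3.24 (edgeR adjusted p = 0.000884) from a level 3.49 log2 units under untreated wild type (log2 difference -3.49, edgeR adjusted p = 0.000825).

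AT3G62040 (chr3:22975328-22976603, minus strand) encodes a hydrolase of the haloacid dehalogenase-like superfamily. Its level was 81.7, 89.7 and 80.4 CPM in untreated wild type and 67.0, 71.1 and 75.2 CPM in treated wild type. It was 24.7 and 30.2 CPM in the untreated memory line and 105 and 63.5 CPM in the treated memory line, where the replicates spread more widely than in any other group. The untreated memory line lay below all other samples. Its interaction value was 1.86 on the log2 scale (SE 0.26, edgeR adjusted p = 0.0321), from -0.24 in wild type (edgeR adjusted p = 0.384) and a rise of 1.62 in the memory line (edgeR adjusted p = 0.00163). Between untreated genotypes the log2 difference was -1.62 (edgeR adjusted p = 0.00391).

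Outside scpl31, these calls lay close to the threshold. AT1G74770 was called under 13 of 21 alternatives, AT1G52120 under 12 and AT3G62040 under 12, always with a positive value. AT1G74770 missed the threshold without untreated wild-type replicate 1 (edgeR adjusted p = 0.0686) or 2 (0.109), treated wild-type replicate 2 (0.153) or 3 (0.0903), untreated memory-line replicate 1 (0.0543) or treated memory-line replicate 1 (0.122). AT1G52120 missed it without untreated wild-type replicate 1 (edgeR adjusted p = 0.0686) or 2 (0.109), treated wild-type replicate 1 (0.0721), 2 (0.153) or 3 (0.0903), untreated memory-line replicate 2 (0.0811) or treated memory-line replicate 1 (0.122). AT3G62040 missed it without untreated wild-type replicate 1 (edgeR adjusted p = 0.0737) or 2 (0.138), treated wild-type replicate 1 (0.0741), 2 (0.153) or 3 (0.102), untreated memory-line replicate 1 (0.0613) or treated memory-line replicate 1 (0.0743). The log2 values of the 3 genes in these fits ranged from 1.37 to 1.44, from 2.85 to 3.27 and from 1.45 to 1.90. With all replicates kept, limma voom called none of the 3 (limma adjusted p = 0.0537 for AT1G74770, 0.274 for AT1G52120 and 0.0537 for AT3G62040). With the first technical library of each replicate, AT1G74770 had 1.16 (edgeR adjusted p = 0.214) and AT1G52120 3.06 (0.171). With a replicate block AT3G62040 had 1.85 (edgeR adjusted p = 0.0782).

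**Figure D1:**
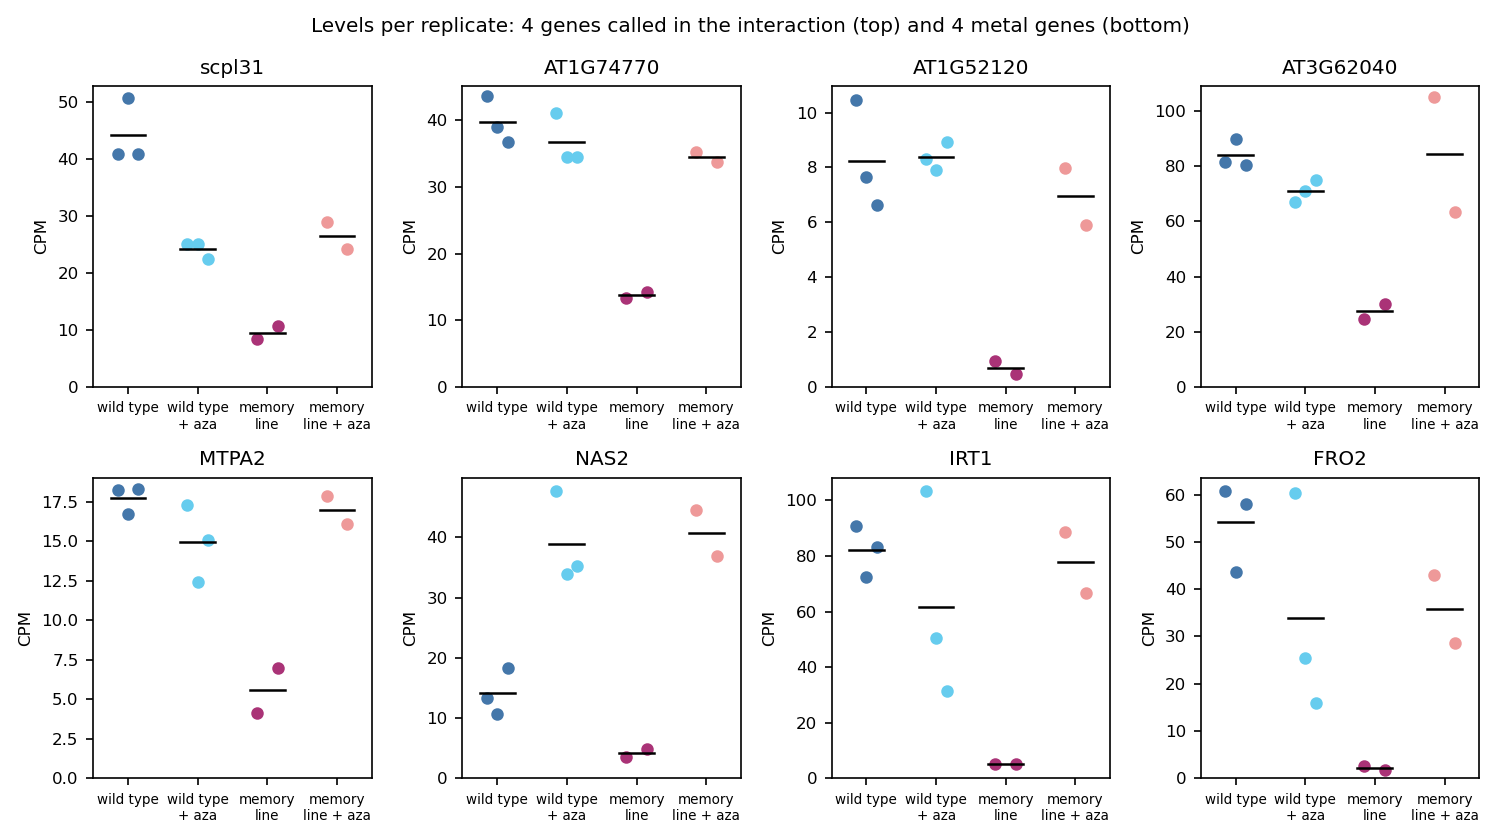
Levels of 8 genes in CPM (vertical axis, a separate linear scale for each panel) in the 4 groups (horizontal axis), with a point for each biological replicate and a bar for the group mean. In the upper panels (scpl31, AT1G74770, AT1G52120, AT3G62040) both untreated memory-line replicates lie below all other samples. In the lower panels MTPA2, NAS2, IRT1 and FRO2 are also lowest in the untreated memory line.

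Because the untreated memory line was the lowest group for all 4 genes, the 250 bases before each annotated start are shown for what their sequences hold in common. They were read from the TAIR10.1 genome on the minus strand, 5′ to 3′, at chr1:3698014-3698263 for scpl31, chr1:19398245-19398494 for AT1G52120, chr1:28094957-28095206 for AT1G74770 and chr3:22976604-22976853 for AT3G62040. None of the windows holds an annotated exon base of any gene. Capitals mark the W-box core TTGAC, or GTCAA where it lies on the opposite strand.
scpl31: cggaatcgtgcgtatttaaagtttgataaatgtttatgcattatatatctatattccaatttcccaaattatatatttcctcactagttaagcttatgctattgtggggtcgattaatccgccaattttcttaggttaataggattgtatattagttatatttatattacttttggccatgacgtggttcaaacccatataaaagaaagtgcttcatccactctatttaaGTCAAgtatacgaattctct
AT1G52120: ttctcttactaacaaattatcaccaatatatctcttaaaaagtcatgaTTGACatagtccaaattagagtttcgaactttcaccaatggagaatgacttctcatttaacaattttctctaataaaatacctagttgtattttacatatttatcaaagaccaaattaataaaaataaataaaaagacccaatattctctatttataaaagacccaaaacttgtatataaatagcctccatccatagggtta
AT1G74770: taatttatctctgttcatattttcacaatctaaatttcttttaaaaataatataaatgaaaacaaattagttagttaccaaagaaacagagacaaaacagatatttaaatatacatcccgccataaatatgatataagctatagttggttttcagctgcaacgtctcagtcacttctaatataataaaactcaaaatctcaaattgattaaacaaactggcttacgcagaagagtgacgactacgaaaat
AT3G62040: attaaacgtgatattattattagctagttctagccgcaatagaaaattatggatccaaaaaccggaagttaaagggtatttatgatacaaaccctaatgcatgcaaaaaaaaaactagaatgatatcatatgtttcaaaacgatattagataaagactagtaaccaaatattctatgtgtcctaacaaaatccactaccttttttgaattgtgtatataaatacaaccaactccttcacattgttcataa

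The W-box core, the motif bound by WRKY transcription factors, was present in 2 of the 4 windows, at -20 to -16 in scpl31 and at -202 to -198 in AT1G52120. On either strand it is found in 45% of the windows of all tested genes (9909 of 22024). The other motifs searched, also on both strands, were the evening element AAAATATCT (2.38% of all windows), the G-box CACGTG (6.9%), the GCC box GCCGCC (2.01%) and the CCA1 binding site AAAAATCT (6.53%). None of these was in any of the 4 windows. A match is a description of letters, and with 4 windows no share can be compared.

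Among genes that missed the threshold, the smallest p on the negative side belonged to AT3G28540, annotated as a P-loop nucleoside triphosphate hydrolase and singled out after its values were seen. It had 1.66, 1.26 and 1.32 CPM in untreated wild type and 15.8, 8.52 and 7.61 CPM in treated wild type. The memory line had 2.44 and 1.88 CPM untreated and 1.61 and 1.53 CPM treated. Treated wild type was thus the group apart, above all other samples. This gave an interaction value of -3.37 on the log2 scale (SE 0.53, edgeR adjusted p = 0.0856). It rose by 2.91 in wild type (edgeR adjusted p = 0.000254), and the memory-line value was -0.47 (edgeR adjusted p = 0.817). On the positive side the smallest p among uncalled genes belonged to MTPA2, described below with the other metal transport genes.

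The genes with a symbol that came next by p did not pass the interaction test and are given as values. On the positive side, GLYI4, a glyoxalase I-type enzyme, had 53.4, 63.4 and 38.8 CPM in untreated wild type and 31.7, 28.0 and 36.3 CPM in treated wild type, then 15.6 and 13.9 CPM in the untreated memory line and 57.8 and 30.6 CPM in the treated memory line. Its interaction value was 2.27 on the log2 scale (edgeR adjusted p = 0.178), and the untreated memory line lay below every other sample. GLP5, a germin-like protein, had 229, 179.9 and 166 CPM in untreated wild type, 202, 126 and 140.4 CPM in treated wild type, 71.5 and 65.6 CPM in the untreated memory line and 233 and 152 CPM in the treated memory line. Here too the untreated memory line was lowest, with a value of 1.79 (edgeR adjusted p = 0.178).

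PP2-A8, a phloem protein 2-type lectin, had 24.5, 23.0 and 31.6 CPM in untreated wild type and 38.9, 33.9 and 46.1 CPM in treated wild type. Levels in the memory line were 8.18 and 4.89 CPM untreated and 38.5 and 27.2 CPM treated, so the untreated memory line was again lowest. Its value was 1.72 (edgeR adjusted p = 0.186). MES18, a methylesterase, and BT5, a BTB and TAZ domain protein, were also low in the untreated memory line, but in contrast to GLP5 and PP2-A8 they fell on the drug in wild type, by 1.11 (edgeR adjusted p = 0.0205) and 1.34 (edgeR adjusted p = 0.00869). Their interaction values were 2.16 and 2.06 (edgeR adjusted p = 0.178 for both). CHX17, a cation/proton exchanger, had a value of 1.80 (edgeR adjusted p = 0.263) and AATP1 one of 2.39 (edgeR adjusted p = 0.265). OTP43, a splicing factor for a mitochondrial transcript, had a value of 1.03 (edgeR adjusted p = 0.238), but 52.7% of its exon length is overlapped by a gene on the other strand, and the libraries were not made to keep strand.

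On the negative side the order of groups was another one. DBE1, a starch debranching enzyme of the isoamylase type, had 31.2, 30.6 and 31.8 CPM in untreated wild type and 54.0, 52.9 and 47.6 CPM in treated wild type. In the memory line it had 54.6 and 47.2 CPM untreated and 45.3 and 43.3 CPM treated. Untreated wild type was the group apart, below all other samples. The interaction value was -0.92 (edgeR adjusted p = 0.178), with a rise of 0.72 in wild type (edgeR adjusted p = 0.00199) and a value of -0.20 in the memory line (edgeR adjusted p = 0.711).

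FAH1, ferulate 5-hydroxylase of the lignin and sinapate pathway, had 35.4, 30.0 and 32.2 CPM in untreated wild type and 63.5, 62.6 and 57.5 CPM in treated wild type. Memory-line plants had 39.7 and 36.6 CPM untreated and 40.3 and 29.5 CPM treated. Only treated wild type was high, and the value was -1.04 (edgeR adjusted p = 0.178). FAH1 rose by 0.91 in wild type (edgeR adjusted p = 0.00134). ATC, a member of the FT and TFL1 family of flowering regulators, had 10.8, 15.1 and 10.2 CPM in untreated wild type and 20.3, 16.4 and 23.3 CPM in treated wild type, against 24.2 and 22.6 CPM in the untreated memory line and 7.48 and 13.8 CPM in the treated memory line. Its responses had opposite signs, 0.74 in wild type and -1.13 in the memory line, with an interaction value of -1.87 (edgeR adjusted p = 0.178), though neither response passed its own test (edgeR adjusted p = 0.0693 and 0.103).

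SDI1 and SULTR1;3 are described with the sulfur genes. The other 10 genes of the negative side (EMB25, CDF1, UGP1, DFL2, TPPE, OBP2, SS2, PHO1;H1, APL3 and PUP1) had values between -0.83 and -2.82 on the log2 scale (edgeR adjusted p from 0.298 to 0.343). They included 3 enzymes of sugar and starch synthesis: UGP1, a UDP-glucose pyrophosphorylase, with -0.94, APL3, a large subunit of ADP-glucose pyrophosphorylase, with -1.10, and SS2, a starch synthase, with -0.83. UGP1 rose in wild type by 0.68 (edgeR adjusted p = 0.0104) and APL3 by 0.95 (edgeR adjusted p = 0.00562), while the memory-line values of the 3 enzymes were -0.26, -0.16 and -0.58. CDF1, a repressor of flowering genes that is under clock control, had -2.82, and the phosphate exporter homologue PHO1;H1 had -1.34.

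Single replicates decided some of these calls. Without untreated wild-type replicate 3, AT3G28540 had an interaction value of -3.35 (edgeR adjusted p = 0.0427), GLYI4 2.42 (0.0427), MES18 2.29 (0.0447), BT5 2.26 (0.0128), CHX17 1.98 (0.0427) and SULTR1;3 -3.92 (0.0462). Without treated memory-line replicate 2, GLYI4 had 2.64 (edgeR adjusted p = 0.00533) and ATC -2.40 (0.0316).

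Genes of the root's iron uptake system had mostly positive interaction values, although none passed edgeR's test. In this system FIT1 and related transcription factors switch on the ferric reductase FRO2, the iron transporter IRT1 and the synthesis and export of coumarins that mobilise iron. Of 15 genes listed 13 were tested, and 11 had a value above 0 against 51.4% of all genes. The median was 1.06 on the log2 scale, with single values from -0.55 to 6.23, against 0.01 over all genes. Without untreated memory-line replicate 2 the list median was 0.59. At an unadjusted p under 0.05, 7 were higher and none lower, against 4.36% and 4.23% of all genes. DESeq2 called 3 of the 13, all higher, against 46 called higher of the 21022 genes with a DESeq2 adjusted p.

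IRT1, the main iron transporter of root epidermis, had 90.8, 72.2 and 83.2 CPM in untreated wild type and 103, 50.5 and 31.6 CPM in treated wild type. The memory line had 5.24 and 5.26 CPM untreated and 88.8 and 66.8 CPM treated. Only the untreated memory line was low, and treated wild type spread over the widest range. Its interaction value was 4.29 on the log2 scale (SE 0.66, 95% interval 2.76 to 5.83, edgeR adjusted p = 0.193). IRT1 rose by 3.89 in the memory line (edgeR adjusted p = 0.0232), and the untreated memory line differed from untreated wild type by -3.96 (edgeR adjusted p = 0.0226). Without treated wild-type replicate 1 the interaction value was 4.89 (edgeR adjusted p = 8.65e-05), and without its replicate 3 it was 3.98 (edgeR adjusted p = 0.0455). With all replicates kept, DESeq2 gave 4.28 (DESeq2 adjusted p = 1.78e-06).

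FRO2, which reduces ferric iron at the root surface, was likewise lowest in the untreated memory line, and had 60.7, 43.6 and 58.1 CPM in untreated wild type and 60.4, 25.4 and 15.8 CPM in treated wild type. Levels in the memory line were 2.65 and 1.78 CPM untreated and 43.0 and 28.6 CPM treated. Both untreated memory-line replicates were far below all other samples. The interaction value was 4.65 (SE 0.86, edgeR adjusted p = 0.343), and without treated wild-type replicate 1 it was 5.37 (edgeR adjusted p = 0.000953). DESeq2 on all replicates gave 4.67 (DESeq2 adjusted p = 3.67e-05). CYP82C4, a cytochrome P450 that acts on coumarins, had the highest value of the list at 6.23 and also the widest interval, from 2.36 to 10.105 (edgeR adjusted p = 0.44). Its level was 39.1, 27.6 and 34.6 CPM in untreated wild type, 60.7, 19.8 and 8.71 CPM in treated wild type, 0.717 and 0.564 CPM in the untreated memory line and 68.6 and 19.0 CPM in the treated memory line.

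The regulators and exporters of the list had smaller values. The transcription factor gene FIT1 had 0.95 (edgeR adjusted p = 0.521), MYB10 1.07 (edgeR adjusted p = 0.343), the second transporter IRT2 2.14 (edgeR adjusted p = 0.345) and the coumarin exporter ABCG37 0.59 (edgeR adjusted p = 0.479). ABCG37 rose in the memory line by 0.95 (edgeR adjusted p = 0.0116), from 38.1 and 30.7 CPM to 65.4 and 67.8 CPM. In the response of wild type the 1 called gene of the list was the proton pump AHA2, which rose by 0.58 (3.02% of all genes rose). The regulators of iron status, among them the bHLH factors of subgroup Ib and the ubiquitin ligase BTS, had a median of 0.24, with 10 of 13 above 0. Of these 13, 1 was higher at an unadjusted p under 0.05, against 4.36% of all genes. The listed names BTSL1 and BTSL2 matched no identifier by name and are not among the list's 13 genes. They may be tested under another name. Ferritins and vacuolar iron transporters had a median of 0.36, with 6 of 7 above 0, the highest being VTL1 at 2.78 (edgeR adjusted p = 0.343).

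Nicotianamine synthases and vacuolar metal transporters had values on both sides of 0. Nicotianamine chelates iron and zinc for movement inside the plant, and the vacuolar transporters of the root store zinc and other metals that enter together with iron. MTPA2, a vacuolar zinc transporter, had 16.7 to 18.3 CPM in the 3 untreated wild-type replicates and 17.3, 12.4 and 15.1 CPM in treated wild type. In the memory line it had 4.16 and 6.95 CPM untreated and 17.9 and 16.1 CPM treated. The untreated memory line lay below all other samples, and the interaction value was 1.87 on the log2 scale (SE 0.30, edgeR adjusted p = 0.0856). MTPA2 rose in the memory line by 1.62 (edgeR adjusted p = 0.00401). It passed the interaction test without untreated memory-line replicate 2 (2.27, edgeR adjusted p = 0.026) and without untreated wild-type replicate 3 (1.83, edgeR adjusted p = 0.0427).

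NAS2, a nicotianamine synthase, rose on 5-azacytidine in both genotypes. It had 13.3, 10.6 and 18.3 CPM in untreated wild type and 47.7, 33.9 and 35.2 CPM in treated wild type, a rise of 1.46 on the log2 scale (edgeR adjusted p = 0.00162). In the memory line it went from 3.51 and 4.79 CPM to 44.5 and 36.8 CPM, a rise of 3.304 (edgeR adjusted p = 9.07e-05). The treated groups overlapped and the untreated memory line was lowest, which gave an interaction value of 1.84 (SE 0.34, edgeR adjusted p = 0.178). NAS1 had 1.18 (edgeR adjusted p = 0.343), the zinc and cadmium pump HMA3 2.34 (edgeR adjusted p = 0.343) and the vacuolar transporter IREG2 1.89 (edgeR adjusted p = 0.363).

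The YSL transporters, which carry metals bound to nicotianamine, lay on the other side. YSL1 had -1.69 (edgeR adjusted p = 0.437), YSL2 -0.81 (edgeR adjusted p = 0.558) and YSL3 -0.72 (edgeR adjusted p = 0.544). YSL1 had 5.24, 3.54 and 4.41 CPM in untreated wild type, 5.43, 11 and 10.2 CPM in treated wild type, 12.3 and 6.20 CPM in the untreated memory line and 4.42 and 7.22 CPM in the treated memory line, so its groups overlapped widely. Over the 13 tested genes of the list the median was 0.00, with 6 above 0. At an unadjusted p under 0.05, 5 were higher and 3 lower, against 4.36% and 4.23% of all genes. None passed edgeR's test, and DESeq2 called 2, both higher, against 46 called higher of 21022 genes. In the memory line's own response 4 members rose (NAS1, NAS2, MTPA2 and HMA3; 0.477% of all genes), and in wild type 1 rose (NAS2; 3.02%).

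**Figure D2:**
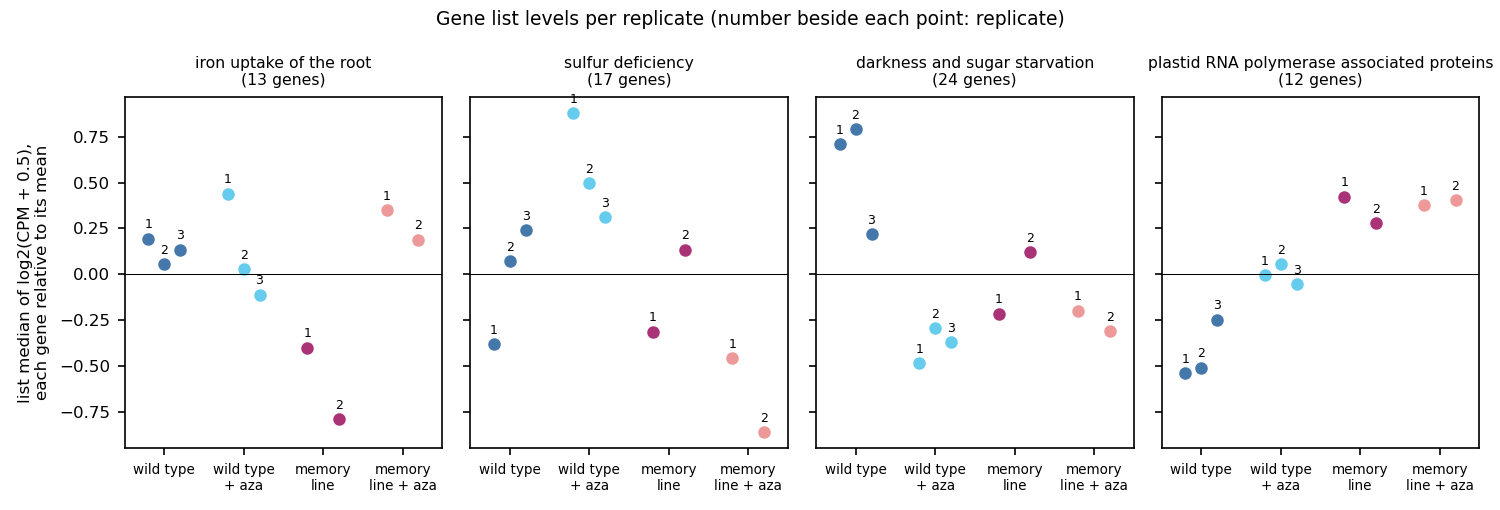
Median level of 4 gene lists in each biological replicate, as log2(CPM + 0.5) after each gene's mean over the 10 replicates was subtracted (vertical axis), by group (horizontal axis). The iron uptake list is lowest in the untreated memory line at -0.40 and -0.79. The sulfur deficiency list runs from 0.31 to 0.88 in treated wild type and is at -0.46 and -0.86 in the treated memory line. The darkness and sugar starvation list is highest in untreated wild type at 0.22 to 0.79, and the plastid RNA polymerase list is lowest there at -0.54 to -0.25.

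Genes that plants express under sulfur deficiency had mostly negative interaction values. The list holds the sulfate transporters and the APR enzymes that reduce sulfate, the LSU proteins, and SDI1, a repressor of glucosinolate synthesis. Of 17 tested genes 16 were below 0 against 48.6% of all genes, and the median was -1.55 on the log2 scale (-1.12 without untreated memory-line replicate 2). None passed edgeR's test, and 10 were lower at an unadjusted p under 0.05 against 4.23% of all genes. DESeq2 called 6 of the 17, all lower, against 30 called lower of 21022 genes. Without untreated wild-type replicate 3 edgeR called 1, lower, against 9 called lower of all 21965 genes tested there.

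SDI1 had 9.72, 15.1 and 20.6 CPM in untreated wild type and 19.0, 14.2 and 13.7 CPM in treated wild type. Memory-line plants had 16.6 and 32.3 CPM untreated and 3.74 and 4.89 CPM treated, so only the treated memory line was low. This gave an interaction value of -2.53 (SE 0.50, edgeR adjusted p = 0.282), and SDI1 fell by 2.49 in the memory line (edgeR adjusted p = 0.0174). Without untreated wild-type replicate 3 the interaction value was -2.83 (edgeR adjusted p = 0.0481). LSU2 differed in where its groups parted. It had 12.5, 13.8 and 18.8 CPM in untreated wild type, 62.5, 31.8 and 33.8 CPM in treated wild type, 16.9 and 26.9 CPM in the untreated memory line and 15.2 and 7.37 CPM in the treated memory line. Treated wild type was above all other samples, with a rise of 1.51 (edgeR adjusted p = 0.0418), and the interaction value was -2.46 (edgeR adjusted p = 0.345).

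The sulfate-reducing enzyme APR2 resembled LSU2. It had 115, 127 and 180.5 CPM in untreated wild type and 391, 296 and 288 CPM in treated wild type, a rise of 1.205 on the log2 scale (edgeR adjusted p = 0.0383). The memory line had 138 and 182 CPM untreated and 172 and 77.0 CPM treated, and these overlapped untreated wild type. The interaction value of APR2 was -1.56 (edgeR adjusted p = 0.437), that of APR1 -1.55 (edgeR adjusted p = 0.431) and that of APR3 -1.39 (edgeR adjusted p = 0.449). GGCT2;1, which breaks down glutathione in the cytosol, had -3.64 (edgeR adjusted p = 0.431), and LSU3 had -2.76 (edgeR adjusted p = 0.349). The 1 member above 0 was BGLU30, a beta-glucosidase, at 1.22 (edgeR adjusted p = 0.682).

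In the responses behind these values, LSU2, LSU4, APR2 and the root sulfate transporter SULTR1;1 rose in wild type and BGLU30 fell. That is 4 of 17 tested members higher and 1 lower, against 3.02% and 3.37% of all genes. SULTR1;1 rose by 2.48 (edgeR adjusted p = 0.0234), from 0.166, 0.473 and 0.956 CPM to 2.41, 3.41 and 3.38 CPM, against 0.287 and 1.13 CPM in the untreated and 1.36 and 0.511 CPM in the treated memory line. SDI1 was the 1 member that passed the test in the memory line, where it fell (0.263% of all genes did). SULTR1;3, a phloem sulfate transporter outside the list, had 0.166, 0.315 and 0.515 CPM in untreated wild type, while its other groups lay between 1.19 and 2.82 CPM. Its interaction value was -3.45 (SE 0.66, edgeR adjusted p = 0.178) at low levels.

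Genes that are expressed in darkness or when sugar runs out also had mostly positive values, but here the group with the highest levels was untreated wild type. The list holds the dark-inducible DIN genes, enzymes that break down amino acids, and the SnRK1 subunit AKINBETA1. Of 24 tested genes 23 were above 0 and the median was 0.79 on the log2 scale (1.04 without untreated memory-line replicate 2). None passed edgeR's test, and 13 were higher at an unadjusted p under 0.05 against 4.36% of all genes. In wild type 15 of the 24 fell on the drug (3.37% of all genes) and in the memory line none did (0.263%). That difference in counts was not tested, and the memory line had fewer replicates.

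DIN4, a subunit of the branched-chain keto acid dehydrogenase, had 54.2, 68.9 and 40.1 CPM in untreated wild type and 16.9, 18.3 and 25.8 CPM in treated wild type. Levels in the memory line were 34.9 and 37.5 CPM untreated and 32.8 and 31.9 CPM treated. The wild-type groups lay on either side of the memory line, whose groups were close to each other. DIN4 fell by 1.42 in wild type (edgeR adjusted p = 0.00189), the memory-line value was -0.16 (edgeR adjusted p = 0.913) and the interaction value was 1.26 (SE 0.31, edgeR adjusted p = 0.343). Without untreated wild-type replicate 3, the least high of its group, the interaction value was 1.42 (edgeR adjusted p = 0.0462).

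AKINBETA1 had 71.1, 74.5 and 44.3 CPM in untreated wild type and 23.9, 25.5 and 29.4 CPM in treated wild type. In the memory line it had 30.5 and 43.9 CPM untreated and 36.3 and 34.9 CPM treated, below untreated and above treated wild type in every sample. Its interaction value was 1.21 (edgeR adjusted p = 0.345), and without untreated wild-type replicate 3 it was 1.396 (edgeR adjusted p = 0.0427). DIN1, a senescence-associated gene also called SEN1, had 163, 322 and 56.9 CPM in untreated wild type, 8.14, 14.1 and 10.9 CPM in treated wild type, 22.9 and 27.1 CPM in the untreated memory line and 16.6 and 15.6 CPM in the treated memory line. Its value was 3.395 (SE 0.96, edgeR adjusted p = 0.47), with the untreated wild-type replicates far apart. ASN1, the dark-inducible asparagine synthetase, showed almost no interaction at 0.06, but its interval ran from -2.25 to 2.37.

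Over the whole list 5 members were called without untreated wild-type replicate 3, all higher, against 39 called higher of all 21965 genes tested there. Without that replicate and untreated memory-line replicate 2, a setting chosen after seeing the data, the list median was 1.15.

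Proteins bound to the plastid-encoded RNA polymerase, which transcribes photosynthesis genes inside chloroplasts, had small and mostly negative values. Of 12 tested genes 11 were below 0, and the median was -0.44 on the log2 scale (-0.48 without untreated memory-line replicate 2). None passed the test, and 6 were lower at an unadjusted p under 0.05, against 4.23% of all genes. Here the memory line was high with or without the drug. FLN2, a fructokinase-like subunit, had 38.1, 46.5 and 62.7 CPM in untreated wild type and 89.2, 97.3 and 81.4 CPM in treated wild type. Memory-line plants had 117 and 109 CPM untreated and 113 and 122 CPM treated. Untreated wild type was lowest, treated wild type intermediate and the memory line highest, with no overlap between these. FLN2 rose by 0.86 in wild type (edgeR adjusted p = 0.00748), was 1.203 higher in the untreated memory line than in untreated wild type (edgeR adjusted p = 0.00983) and had an interaction value of -0.81 (edgeR adjusted p = 0.431).

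FLN1 had -0.57 (edgeR adjusted p = 0.526), MURE -0.74 (edgeR adjusted p = 0.449) and PTAC3 -0.47 (edgeR adjusted p = 0.526). In all, 6 of the 12 rose on the drug in wild type (3.02% of all genes) and none in the memory line (0.477%), a difference in counts that was not tested and in which the memory line had fewer replicates. In the untreated memory line 9 of the 12 were higher than in untreated wild type (0.694% of all genes). Nuclear photosynthesis genes had a median interaction of -0.30, but it ran from -0.93 to 0.40 over the alternatives.

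**Figure D3:**
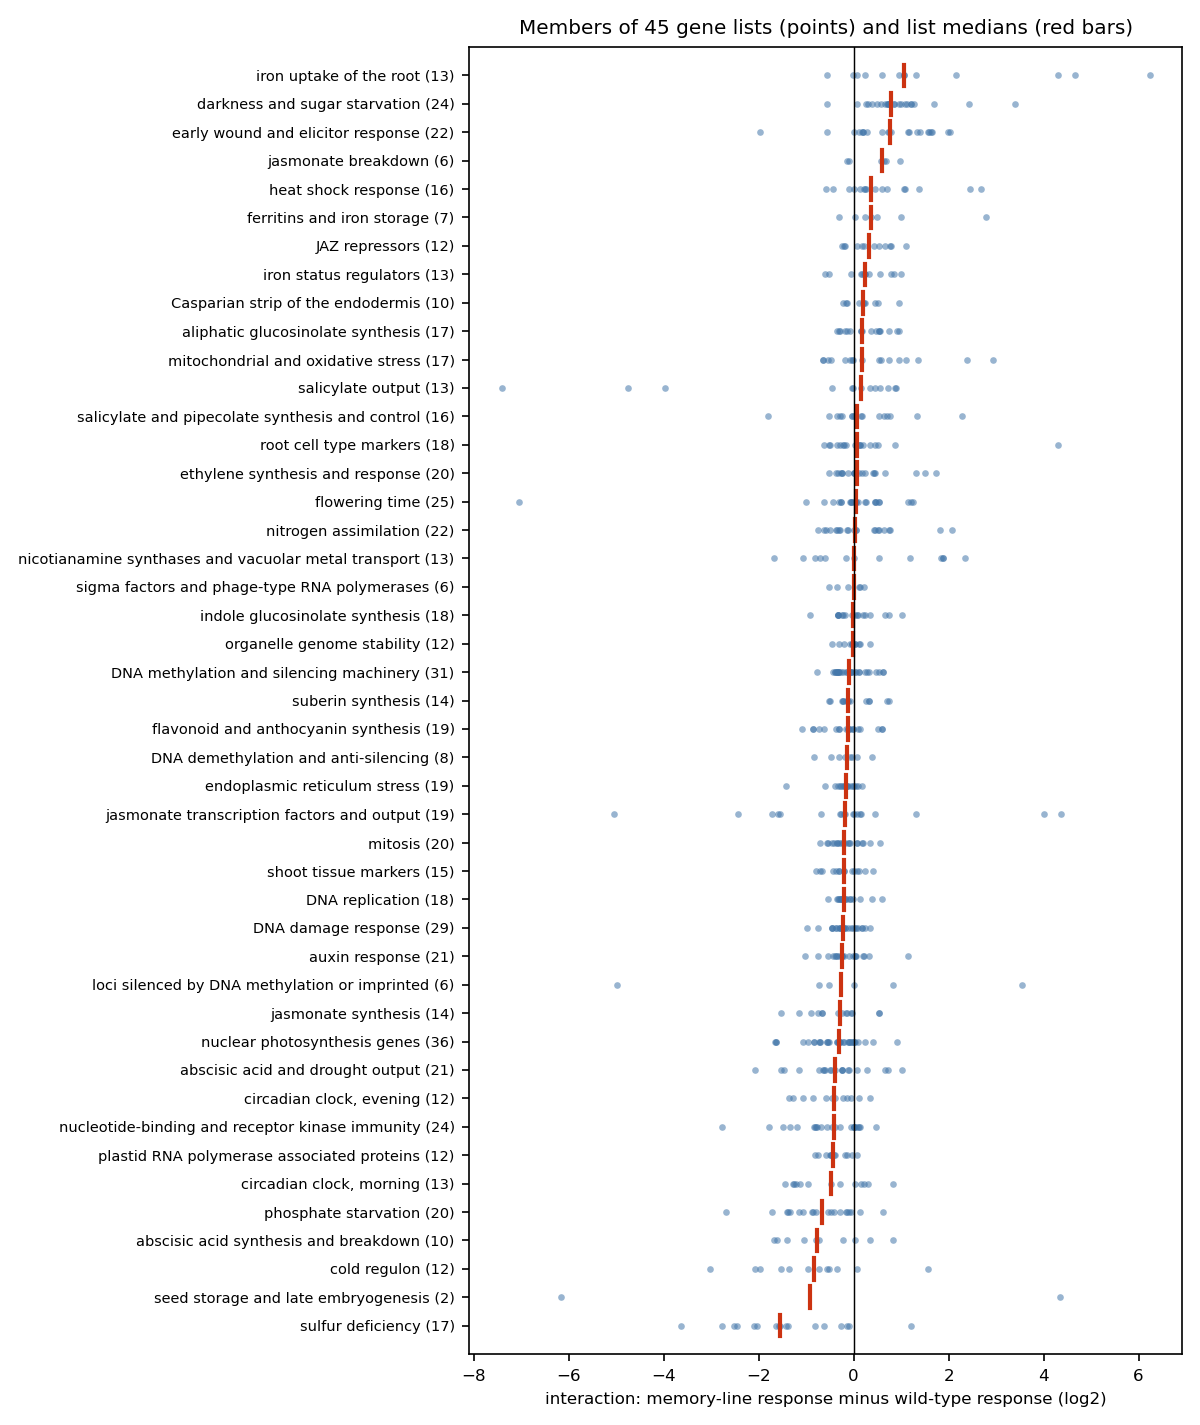
Interaction values on the log2 scale (horizontal axis) of the tested members of 45 gene lists (vertical axis), with a blue point for each gene. A red bar marks the list median and a black line the median of all 22031 tested genes, 0.01. Iron uptake (median 1.06), darkness and sugar starvation (0.79) and early wound response (0.76) lie to the right, and sulfur deficiency (-1.55) and the cold regulon (-0.84) to the left.

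Among 6 tested loci that DNA methylation silences or that are imprinted, 4 rose on the drug in wild type (SDC, QQS, MRU1 and FWA) and 3 in the memory line (SDC, QQS and MRU1), against 3.02% and 0.477% of all genes. SDC, an F-box gene held silent by methylated repeats in its promoter, had 0.249, 0.236 and 0.662 CPM in untreated wild type and 8.14, 8.83 and 8.95 CPM in treated wild type. Its level went from 0.717 and 0.282 CPM to 7.57 and 8.46 CPM in the memory line. Treated and untreated plants did not overlap and the genotypes did. The rise was 4.44 in wild type (edgeR adjusted p = 1.81e-05) and 3.92 in the memory line (edgeR adjusted p = 0.000573). The interaction value was -0.52 with a 95% interval of -1.85 to 0.81, so a difference of more than 1 log2 unit in that direction lies within the error.

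QQS had 2.24, 2.84 and 0.882 CPM in untreated wild type, 33.5, 23.6 and 36.1 CPM in treated wild type, 1.51 and 5.45 CPM in the untreated memory line and 32.0 and 31.4 CPM in the treated memory line. It too rose in both genotypes, with an interaction of -0.73 (95% interval -2.29 to 0.82). MRU1 rose by 3.76 in each genotype, and its interaction was 0.00 (95% interval -0.77 to 0.78). FWA, a homeobox gene that is imprinted in the endosperm, had no counts in untreated wild type (0 CPM in all 3 replicates) and 4.07, 0.930 and 8.40 CPM in treated wild type. The memory line had 0 and 0.376 CPM untreated and 2.12 and 2.92 CPM treated, so counts were too low for a fold to be given. MEA, an imprinted Polycomb gene, passed in neither response and had an interaction value of 3.54 (edgeR adjusted p = 0.511) at levels under 1 CPM. Over the 6 tested loci the median was -0.26.

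The genes for methylation itself gave small values. MET1, which maintains methylation at CG sites, had -0.15, CMT3, which acts at CHG sites, -0.08, the chromatin remodeller DDM1 -0.31 and the demethylase ROS1 -0.19. CMT2, which acts at CHH sites, had -0.77 (edgeR adjusted p = 0.431), the smallest p of its list. The 31 tested genes of the silencing machinery had a median of -0.10. At an unadjusted p under 0.05, 2 were higher and 1 lower, against 4.36% and 4.23% of all genes. DNA damage genes had a median of -0.23 with 22 of 29 below 0, and none was past an unadjusted p of 0.05. BRCA1, a DNA repair gene, had -0.19 (edgeR adjusted p = 0.931). In that list of 29, 6 genes rose in wild type (3.02% of all genes) and 1 in the memory line (0.477%), where replicates were fewer. The difference in counts was not tested.

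Of 12 JAZ genes, which encode repressors of jasmonate signalling, 9 fell on the drug in wild type (3.37% of all genes) and 5 in the memory line (0.263%). The difference in counts was not tested. JAZ9 had 146, 187 and 106 CPM in untreated wild type, 27.1, 26.6 and 22.1 CPM in treated wild type, 115 and 206 CPM in the untreated memory line and 22.0 and 25.9 CPM in the treated memory line. The genotypes overlapped under each treatment, and the interaction value was -0.21 (95% interval -1.05 to 0.63). JAZ2 had 0.54 (edgeR adjusted p = 0.526), with falls of 1.60 in wild type and 1.06 in the memory line. The list's median interaction was 0.32, and none of its genes passed the test.

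Other lists had medians further from 0 with few single genes behind them. Early wound and elicitor genes had a median of 0.76, with 20 of 22 above 0 but 3 higher at an unadjusted p under 0.05 (4.36% of all genes). ERF5, an ethylene response factor of that list, had 1.401 (edgeR adjusted p = 0.483). The cold regulon had -0.84 with 10 of 12 below 0, and genes of abscisic acid synthesis and breakdown -0.77, with CYP707A2, which degrades the hormone, at -1.41 (edgeR adjusted p = 0.43). Without untreated memory-line replicate 2 the cold and abscisic acid medians were -0.41 and -0.46, and that of the early wound list was 0.95. Heat shock genes had 0.36 and genes of jasmonate breakdown 0.61, while immune receptors had -0.42 and genes of DNA replication -0.21. The flowering genes FLC and FT had -0.44 (edgeR adjusted p = 0.865) and -0.999 (edgeR adjusted p = 0.743), and AOX1A, the alternative oxidase of mitochondria, had -0.01 (edgeR adjusted p = 0.994). Phosphate starvation genes had -0.67 with 18 of 20 below 0 and 6 lower at an unadjusted p under 0.05 (4.23% of all genes). Without untreated memory-line replicate 2 their median was -1.01.

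The evening genes of the circadian clock had a median of -0.42. PRR5, a clock repressor, had 44.5, 73.8 and 69.1 CPM in untreated wild type, 44.8, 64.0 and 57.2 CPM in treated wild type, 69.1 and 121 CPM in the untreated memory line and 37.8 and 28.0 CPM in the treated memory line. Its value was -1.36 (edgeR adjusted p = 0.439), with untreated memory-line replicate 2 the highest of all samples. GI had -1.28 (edgeR adjusted p = 0.453), TOC1 -0.45 (edgeR adjusted p = 0.613), and of the morning genes CCA1 had -1.25 (edgeR adjusted p = 0.752) and LHY -0.28 (edgeR adjusted p = 0.911). The morning genes had a median of -0.47, which was 0.15 without untreated memory-line replicate 2 and -0.22 without both that replicate and untreated wild-type replicate 3. Of 15 matched genes of the seed storage and late embryogenesis list, 2 were tested, CRA1 and EM6. They summed to 24.2 CPM in untreated memory-line replicate 2 and to at most 1.08 CPM elsewhere, and their part in the other values was not tested.

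The defence gene PR1 had 12.9, 0 and 0.147 CPM in untreated wild type and 93.5, 28.3 and 24.7 CPM in treated wild type. Levels in the memory line were 2.37 and 0 CPM untreated and 0.170 and 0 CPM treated. Only treated wild type was high throughout, and neither the interaction (edgeR adjusted p = 0.684) nor the wild-type response (edgeR adjusted p = 0.199) passed the test.

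Across all tested genes the responses of the genotypes had a Pearson correlation of 0.654 and a Spearman correlation of 0.302. The groups behind them share no samples. Over the 16794 genes with a mean of at least 5 CPM the correlations were 0.521 and 0.318. Among the 1408 genes called in wild type, those that rose had a median response of 0.81 there and 0.29 in the memory line. Those that fell had -0.84 and -0.24. Choosing genes by one response shrinks the other, so the reverse is given too. Among the 163 genes called in the memory line, those that rose had a median of 5.09 there and 4.95 in wild type. The genes of that set that fell had -1.45 and -1.02. The responses had 122 called genes in common, 8.66% of those called in wild type and 74.9% of those called in the memory line, and 121 had the same direction.

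**Figure D4:**
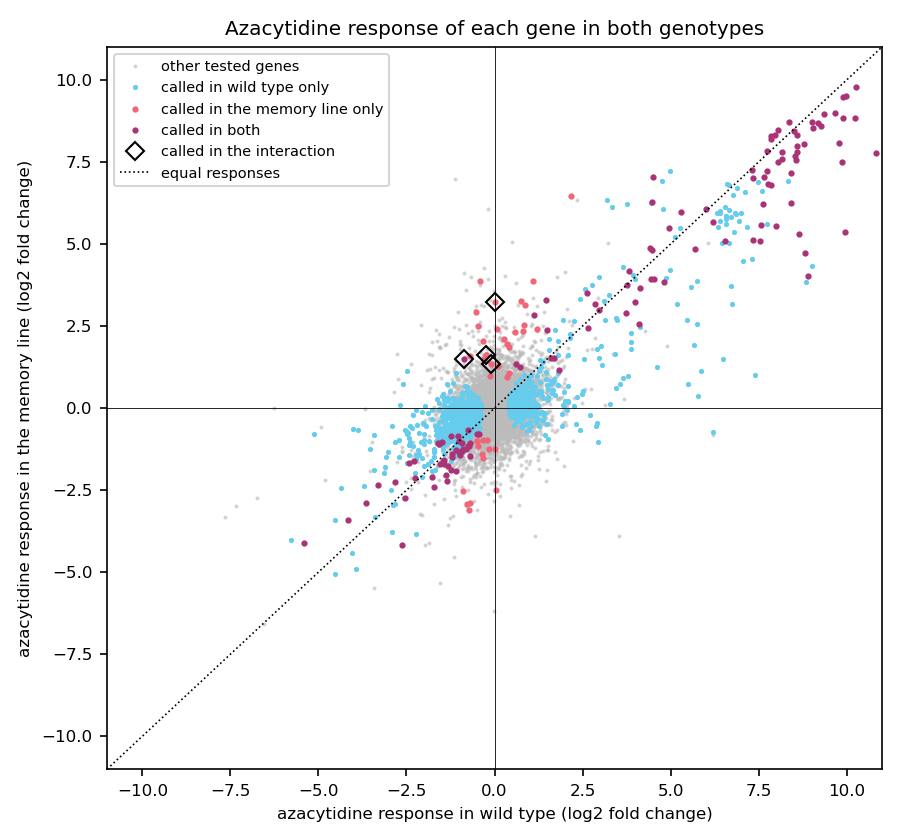
Response to 5-azacytidine in wild type (horizontal axis, log2) and in the memory line (vertical axis, log2) for the 22031 tested genes. Colours mark genes called in neither response, in wild type, in the memory line or in both, the dotted line marks equal responses, and diamonds mark the 4 genes of the interaction, which all lie above that line.

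A gene that missed the interaction test is not shown to respond alike in both genotypes. The median SE was 0.176 for the wild-type response, 0.216 for the memory-line response and 0.278 for the interaction. The 95% interval of the interaction lay within 1 log2 unit of 0 for 12748 genes (57.9%) and reached beyond it for 9201 (41.8%). The other 82 genes had values too near 0 for an SE. Of the 1408 genes called in wild type, 488 (34.7%) had an interval within 1 log2 unit, and of the 163 called in the memory line 23 (14.1%) did.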

How the data were processed

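Whole-plant RNA of 10 biological replicates was sequenced in 26 libraries with an unstranded kit, per the labels. Per the file contents, the deposited values are raw counts of reads for each gene. TAIR10 and DESeq2 are named in the submitters' processing notes. The aligner and counter: not given in the sources used here. Reads in no gene were 48.3% to 49.3% of each replicate's entries and stayed out of library sizes, and chloroplast and mitochondrial genes had 0 counts. Libraries of the same biological replicate were summed. Genes were kept by edgeR's filter (minimum count 10, minimum total 15), scaled by TMM and fitted over 4 groups with edgeR 4.0.16 (limma 3.58.1, R 4.3.3) quasi-likelihood tests with robust dispersion, after the same code was tested on simulated data. Calls are at a Benjamini-Hochberg adjusted p under 0.05, and SE is the log2 value divided by the root of F. CPM are TMM-scaled. Summaries used Python 3.11.15 with pandas 2.3.3 and numpy 2.4.6, figures matplotlib 3.10.9, and one alternative DESeq2 1.42.0.

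The interaction genes named were every called gene, then the smallest p values of each direction with a symbol up to 15 in all. To these came up to 2 members of each of 45 lists by p, and a panel of 20 genes. AT3G28540 and many further list members, among them CYP82C4, YSL1, APR2, GGCT2;1, DIN1, ASN1 and MRU1, were added after their values were seen. The further list members are not among the 128 named genes that were followed over the alternatives. The lists hold 807 entries, of which 776 matched an identifier. Members and lists were chosen with earlier results of these data known. Names and coordinates come from the TAIR10.1 annotation. Alternatives were other tools, scalings and filters, 1 library per replicate, a replicate term and leaving out replicates.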

Additional observations from a re-analysis of the deposited data

Results flagged for a closer look

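Each of the 4 called genes passed a test of the difference between genotypes in the response to 5-azacytidine. All 21 alternatives called scpl31, while 13 called AT1G74770, 12 AT1G52120 and 12 AT3G62040. The interaction values on the log2 scale were 2.36 for scpl31, 1.44 for AT1G74770, 3.22 for AT1G52120 and 1.86 for AT3G62040. In each, both untreated memory-line replicates lay below all other samples, and of the 4, scpl31 was also called in the wild-type response.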

How the results depend on the processing

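With size factors by the RLE method, upper quartile scaling, a stricter filter, or without genes whose exons overlap the other strand by over 50%, the count of called genes was 4, all higher. DESeq2 called 76 (46 higher, 30 lower), limma voom 1 (1 higher), no filter 7 (6 higher, 1 lower) and the first technical library of each replicate 5 (4 higher, 1 lower). Limma voom on the 26 libraries called 384 (163 higher, 221 lower), with libraries of a replicate treated as correlated. Leaving out 1 replicate gave 1 to 48 calls (1 to 39 higher, 0 to 9 lower). The count was 1 without untreated wild-type replicate 1 or 2, treated wild-type replicate 2 or treated memory-line replicate 1, and 2 without treated wild-type replicate 3. It was 7 and 8 without untreated memory-line replicate 1 and 2, 11 without treated memory-line replicate 2 and 48 without untreated wild-type replicate 3. Without untreated wild-type replicate 3 and untreated memory-line replicate 2, chosen after seeing the data, it was 150 (100 higher, 50 lower). The cause of these shifts was not tested. Deviations from the group mean correlated by -0.201 to 0.249 over 13 pairs of same-numbered replicates (median 0.036). Over 24 pairs of other numbers they correlated by -0.249 to 0.201 (median -0.023). In groups of 2 replicates these deviations mirror each other, so the pairs are not independent, and a shared replicate effect was not tested. A replicate block gave 11 calls (8 higher, 3 lower), 3 of them among the 4 and 2 in the iron uptake list. The correlation of the responses over genes of at least 5 CPM was 0.521. Of 2649 gene and setting pairs for 128 named genes, 26 lost a call, 122 gained one and 23 had the other sign, in 14 genes. Of these genes 13 had an unadjusted p of 0.05 or more. The other, AIG1, was -3.97, and leaving out 1 replicate gave -4.86 to 2.39, the highest without untreated memory-line replicate 1 (adjusted p = 0.797). Leaving out 1 replicate, or untreated wild-type replicate 3 and untreated memory-line replicate 2, gave -2.25 to 1.74 for BIP3, -0.69 to 6.59 for EM6, -1.44 to 0.78 for QQS, -1.63 to 0.34 for SDC, -0.31 to 0.0029 for ROS1, -0.83 to 0.056 for FLC, -0.39 to 0.029 for MET1, -0.58 to 0.46 for JAZ9, -0.83 to 0.082 for LHY, -0.80 to 0.54 for BRCA1, -0.55 to 0.16 for CMT3 and -0.24 to 0.21 for AOX1A. CDC45 was 0.030 with the first technical libraries. Depth limits low genes such as FWA, and the 2 memory-line replicates per group limit every interval.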
